A study of Mus musculus with 46 samples.

Results

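The genes described here are markers of macrophages and parts of the complement system in the mouse testis: the lysozymes Lyz1 and Lyz2, the complement genes C1qa, C1qb, C1qc and C2, and the macrophage genes Csf1r and Cd68. They were chosen by symbol, and every probe that the array's annotation gives to 1 of these 8 symbols was taken. That gave 10 probes of 6 genes, out of 25697 probes and 16593 genes in all, and Csf1r and Cd68 were not analysed here. Of the 10 probes, 8 entered the tests. The third probes of Lyz1 (ILMN_1247933, mean log2 value 7.69) and Lyz2 (ILMN_2766780, 7.70) were among the dimmest 40% of probes, those with a mean under 7.76, which were left out.

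Adult male Swiss mice drank acrylamide, a reactive monomer also formed during frying and baking, at 0.001, 0.01, 0.1, 1 or 10 µg/ml, and controls drank plain water. The testes were taken after 1, 6 or 12 months, when the mice were 3 to 6, 11 to 12 or 16 to 17 months old, so time of exposure and age went together in every group. RNA of single testes was measured on Illumina mouse bead arrays, 46 in all, with 17 at 1 month, 18 at 6 months and 11 at 12 months. At 1 and 6 months each group had 3 arrays, except 0.1 µg/ml at 1 month with 2. At 12 months the control, 0.001 and 0.01 µg/ml had 2 arrays each, 0.1 µg/ml had 3, and 1 and 10 µg/ml had 1 each.

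Macrophages live in the interstitium of the testis, beside the Leydig cells that make testosterone and around the seminiferous tubules. They are known for clearing debris, for supporting steroid production and for keeping the tissue tolerant of germ cells. Lysozyme cuts the cell wall of bacteria: Lyz2 is the form of macrophages and neutrophils, and Lyz1 is best known from Paneth cells of the gut. C1qa, C1qb and C1qc encode the 3 chains of C1q, which recognises immune complexes and dying cells and opens the classical pathway of complement, and tissue macrophages are a main source of it. C2 is the protease that joins C4b to form the enzyme that cleaves C3.

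The members lie in close pairs and clusters in the genome (GRCm38). Lyz2 (chr10:117277541-117282272) and Lyz1 (chr10:117287795-117292868) are neighbours with 5522 bases between them. C1qb (chr4:136880126-136886200), C1qc (chr4:136889801-136892936) and C1qa (chr4:136895916-136898844) follow each other with gaps of 3600 and 2979 bases. C2 lies at chr17:34862602-34882100. The 250 bases before the start site are shown for the 4 of these genes with a RefSeq promoter entry (GRCm38.p6, all on the minus strand, 5′ to 3′), because these 4 rose with time. They are chr10:117292869-117293118 for Lyz1, chr10:117282273-117282522 for Lyz2, chr4:136886201-136886450 for C1qb and chr4:136892915-136893164 for C1qc, whose start in that table lies inside the span of the gene given above. Capitals mark the letters AGGAAGT on the opposite strand, read here as ACTTCCT, which hold the GGAA core bound by ETS factors such as PU.1 of macrophages.
Lyz1: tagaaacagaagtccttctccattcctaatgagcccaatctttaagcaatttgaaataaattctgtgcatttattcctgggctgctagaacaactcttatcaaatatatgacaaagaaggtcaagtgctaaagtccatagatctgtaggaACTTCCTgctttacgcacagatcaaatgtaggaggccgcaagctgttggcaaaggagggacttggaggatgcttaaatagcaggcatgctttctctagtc
Lyz2: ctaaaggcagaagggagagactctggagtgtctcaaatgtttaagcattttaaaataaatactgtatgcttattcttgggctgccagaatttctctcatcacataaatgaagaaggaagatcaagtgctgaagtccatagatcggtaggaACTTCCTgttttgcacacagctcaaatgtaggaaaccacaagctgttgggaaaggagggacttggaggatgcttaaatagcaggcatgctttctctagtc
C1qb: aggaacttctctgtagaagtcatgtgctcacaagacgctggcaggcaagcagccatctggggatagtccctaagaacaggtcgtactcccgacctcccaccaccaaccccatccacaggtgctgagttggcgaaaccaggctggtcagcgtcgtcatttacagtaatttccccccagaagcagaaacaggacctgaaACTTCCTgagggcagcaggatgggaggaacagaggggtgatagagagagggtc
C1qc: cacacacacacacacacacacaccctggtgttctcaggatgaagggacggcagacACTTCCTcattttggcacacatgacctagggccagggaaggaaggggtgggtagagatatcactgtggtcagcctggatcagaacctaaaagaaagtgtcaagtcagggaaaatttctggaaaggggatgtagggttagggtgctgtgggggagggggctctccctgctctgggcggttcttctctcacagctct

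The promoters of Lyz1 and Lyz2 were near copies. Of their aligned bases 80.6% were identical (200 identical and 48 mismatched, with 4 gap bases), and the last 50 bases before the start site were the same in both. The AGGAAGT letters stood once in each of the 4 promoters, at 100 to 94 bases before the start in Lyz1 and in Lyz2, at 53 to 47 in C1qb and at 195 to 189 in C1qc. This motif was chosen after the sequences were read, and 7.69% of the 32851 promoters of the same length (2525) held it on either strand. Of 3 other motifs searched on both strands, GAGGAA was found in C1qb and C1qc (23.3% of all promoters), TTGCNNAA in Lyz1 (9.56%) and TGANTCA in none of the 4 (6.75%). In C1qc the GAGGAA letters overlap the marked ones. A match is a description of the letters and not a site.

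Values below are the processed log2 values, and a change is a log2 difference with its standard error from a limma fit across all 15419 tested probes, with Benjamini-Hochberg adjusted, two-sided p-values over all of them and 0.05 as the threshold. The number of arrays limits the precision, and the raw bead intensity, known for 45 arrays, differed between them. Its median ran from 130.4 through 171.4 to 214.3 on 16 arrays of 1 month, from 107.8 through 138.05 to 221.4 on 18 of 6 months and from 119.2 through 140.9 to 200.3 on 11 of 12 months, and its part in the results was not tested. No array was a copy of another (highest correlation 0.996 over all probes). Replicate 3 of 0.001 µg/ml at 1 month, called the outlying array below, correlated with the others at r = 0.844 on average, against 0.974 for the next lowest array. On it C1qa (8.42), C1qb (9.38) and C1qc (8.44) were above the other 16 arrays of 1 month, whose highest values were 7.98, 8.62 and 8.32. There the brightest Lyz1 probe (9.12), C2 (9.30) and the second Lyz2 probe (7.76) were below all 16. It was kept, and the values that rest on it are given with and without it. Germ cell markers such as Prm1 and Ldhc were bright, and of 7 epididymal markers 1 was bright enough to be tested, Lcn8 with a mean of 7.79.

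The brightest probes of Lyz1 and Lyz2 and those of C1qb, C1qc and C2 were higher in the testes of mice sampled after 12 months than after 1 month, and C1qa did not pass. Over the mean of the 6 doses, 5 of the 8 tested probes rose and 0 fell, 1 each of Lyz2, Lyz1, C2, C1qc and C1qb, while 22.9% of all tested probes rose and 18.3% fell in this comparison. The median change was 0.44 over the 6 genes, taken at their brightest probe, and 0.01 over all tested probes. Whole testis RNA was measured, so more macrophages, more RNA per macrophage, RNA of other cells and a change in the mix of cells cannot be told apart. Time, age and the numbering of the samples in the labels run together here, and their parts cannot be told apart.

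**Figure D1:**
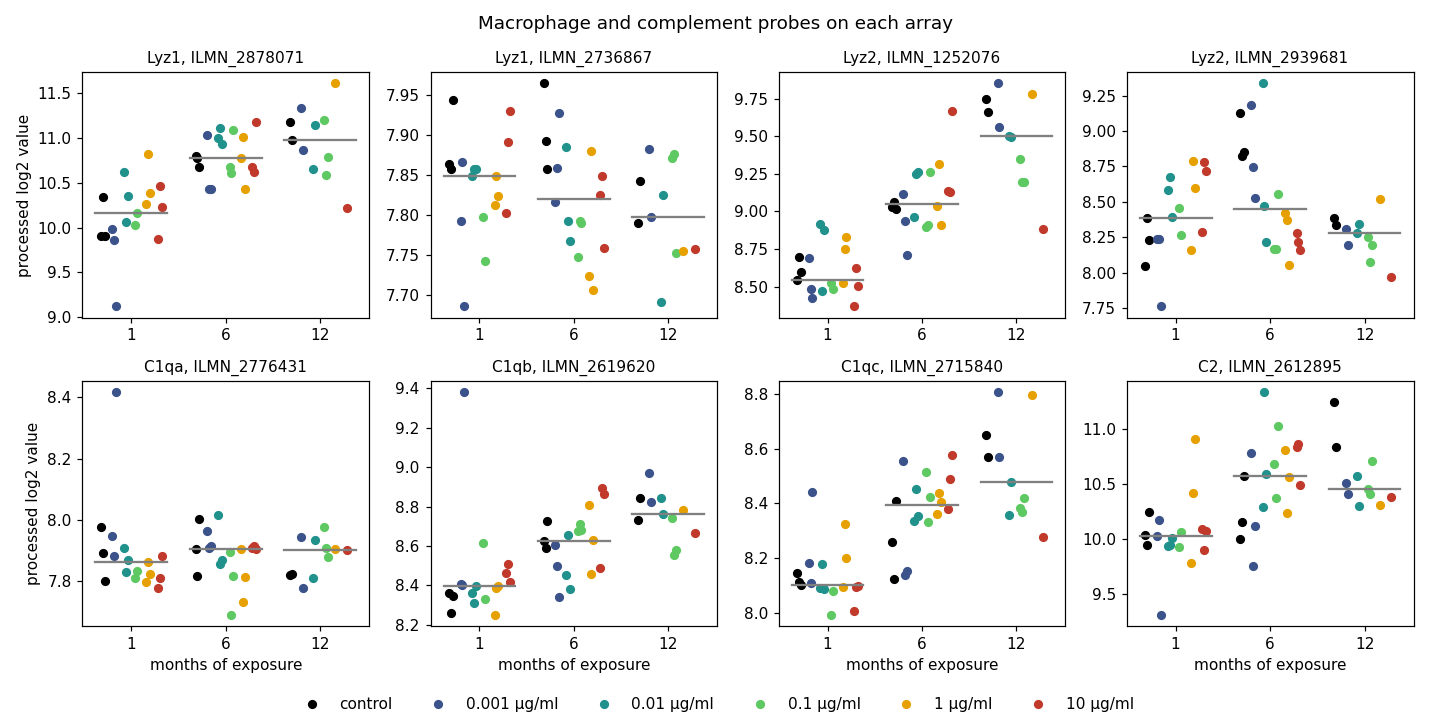
Processed log2 value of each tested probe (y axis, own scale in each panel) on each of the 46 arrays, grouped by months of exposure (x axis) and coloured by dose; the grey line is the median of the arrays of a time. The brightest Lyz2 probe stood at medians of 8.54, 9.05 and 9.50 at 1, 6 and 12 months, and C1qa stayed near 7.9.

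Lyz2, the lysozyme of macrophages, had the smallest p of the members. Its brightest probe, ILMN_1252076, ran from 8.37 through a median of 8.54 to 8.92 on the 17 arrays of 1 month. At 6 months it ran from 8.71 through 9.05 to 9.67 on 18 arrays, and at 12 months from 8.88 through 9.50 to 9.85 on 11 arrays. Of the 12-month arrays 10 of 11, and of the 6-month arrays 14 of 18, lay above every array of 1 month. The exception at 12 months was the single array of 10 µg/ml. The rise was 0.87 ± 0.07 (1.83-fold) at 12 against 1 month (adjusted p = 1.63e-09).

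The other Lyz2 probe did not pass in this comparison. ILMN_2939681 had medians of 8.39, 8.45 and 8.28 at 1, 6 and 12 months, and its change was -0.12 ± 0.10 at 12 against 1 month (95% interval -0.33 to 0.08, adjusted p = 0.347). The deviations of the 2 probes from their group means correlated with r = 0.218 over 46 arrays (rho = 0.346, permutation p = 0.25 and 0.0651, adjusted over 21 pairs 0.531 and 0.228). The sequences of the probes were not used here, so whether each reads Lyz2, Lyz1 or both was not tested.

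Lyz1, the neighbouring lysozyme gene, moved with the brightest Lyz2 probe. Its brightest probe, ILMN_2878071, ran from 9.12 through 10.16 to 10.82 at 1 month, from 10.43 through 10.77 to 11.18 at 6 months and from 10.21 through 10.98 to 11.61 at 12 months. The ranges overlapped, and 7 of 11 arrays of 12 months and 7 of 18 of 6 months were above all of 1 month. The rise was 0.82 ± 0.11 (1.77-fold) at 12 against 1 month (adjusted p = 2.31e-06). The other Lyz1 probe, ILMN_2736867, lay between 7.69 and 7.97 on all 46 arrays and changed by -0.04 ± 0.03 (adjusted p = 0.217). Both left-out probes stayed within 7.60 and 7.79 on all arrays.

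C1qc and C1qb, which code for the C and B chains of C1q, also rose. C1qc (ILMN_2715840) ran from 7.99 through 8.10 to 8.44 at 1 month, from 8.12 through 8.39 to 8.58 at 6 months and from 8.28 through 8.48 to 8.81 at 12 months. All 18 arrays of 6 months and all 11 of 12 months were above the median of 1 month. Its rise was 0.40 ± 0.04 (1.32-fold) at 12 against 1 month (adjusted p = 1.46e-07).

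C1qb (ILMN_2619620) ran from 8.25 through 8.40 to 9.38 at 1 month, where the highest value was that of the outlying array. At 6 months it ran from 8.34 through 8.63 to 8.89 and at 12 months from 8.55 through 8.76 to 8.97. Of the 12-month arrays, 9 of 11 lay above the other 16 arrays of 1 month. It rose by 0.31 ± 0.07 (adjusted p = 0.0014), and by 0.37 ± 0.05 without that array.

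C1qa, the A chain (ILMN_2776431), had medians of 7.86, 7.90 and 7.90, and its change was 0.00 ± 0.04 at 12 against 1 month (95% interval -0.09 to 0.08, adjusted p = 0.939). Without the outlying array it was 0.02 ± 0.03. The probe was dim, with a mean log2 value of 7.88 against 7.76 for the brightest probe left out. In that range the processing compresses differences: with each array's values replaced by the mean sorted log2 intensities, the SD of C1qa over the arrays was 1.61 times as large, against 1.04 times for Lyz1. On that scale its change was 0.00 ± 0.07 (adjusted p = 0.98).

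C2, the protease of the classical pathway (ILMN_2612895), had similar medians at 6 and 12 months. It ran from 9.30 through 10.02 to 10.91 at 1 month, from 9.75 through 10.57 to 11.34 at 6 months and from 10.30 through 10.46 to 11.25 at 12 months. Its groups overlapped, and 1 array of 1 µg/ml at 1 month (10.91) lay above most later ones. The rise was 0.48 ± 0.13 (1.4-fold) at 12 against 1 month (adjusted p = 0.00395) and 0.44 ± 0.12 without the outlying array. A setting chosen after seeing the data took blocks of 8 consecutive sample numbers of the labels as a random term and dropped that array. In it the change was 0.43 ± 0.18 (adjusted p = 0.0591). There 5594 of all tested probes were called, against 6346 with all arrays and no block.

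By 6 months 4 of the 8 probes had risen over 1 month, against 9.38% of all tested probes that rose and 7.91% that fell. Lyz1 rose by 0.65 ± 0.09 (adjusted p = 0.000162), Lyz2 by 0.49 ± 0.06 (1.91e-05), C2 by 0.49 ± 0.11 (0.00331) and C1qc by 0.24 ± 0.04 (0.000197). C1qb was at 0.17 ± 0.06 (adjusted p = 0.0608), and at 0.22 ± 0.04 without the outlying array (adjusted p = 0.000185). C1qa was at -0.01 ± 0.03. The C2 call was lost with the number block as a random term and that array left out (0.41, adjusted p = 0.0948). In that setting 887 of all tested probes were called, against 2665 with all arrays and no block.

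Between 12 and 6 months 2 probes rose, against 5.25% of all tested probes that rose and 4.24% that fell. Lyz2 was higher at 12 months by 0.38 ± 0.07 (adjusted p = 0.00107) and C1qc by 0.16 ± 0.04 (0.0225). The change was 0.17 ± 0.11 for Lyz1, 0.14 for C1qb and 0.00 ± 0.13 for C2 (95% interval -0.27 to 0.26). The second Lyz2 probe was at -0.27 ± 0.10 (adjusted p = 0.0761). The C1qc call was lost when the single 12-month array of 1 µg/ml was left out (0.10 ± 0.05, adjusted p = 0.144) and when the first 12-month array of 0.001 µg/ml was (0.14 ± 0.04, adjusted p = 0.058). It was also lost with the number block as a random term and the outlying array left out (0.16 ± 0.06, adjusted p = 0.0774). In that setting 1181 of all tested probes were called, against 1464 with all arrays and no block. The count of member calls was 4 without the outlying array and 1 without replicate 1 of 0.001 µg/ml at 12 months.

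The same direction with time was seen in mice that drank no acrylamide. In the controls alone, at 12 months (2 arrays) against 1 month (3 arrays), the same 5 probes rose, against 10.9% of all tested probes. Lyz2 stood at 9.75 and 9.66 in the 12-month controls, against 8.54, 8.70 and 8.60 in the 1-month controls, a rise of 1.09 ± 0.15 (adjusted p = 3.14e-05). Lyz1 was at 11.18 and 10.98, against 9.91, 10.34 and 9.90 at 1 month (1.02 ± 0.25, adjusted p = 0.005). The 2 groups did not overlap in either gene.

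C2 was at 11.25 and 10.84 in the 12-month controls, against 10.03, 9.95 and 10.25 in the 1-month controls (0.97 ± 0.29, adjusted p = 0.0195). C1qc was at 8.65 and 8.57, against 8.15, 8.11 and 8.10 at 1 month (0.49 ± 0.10, adjusted p = 0.00115). C1qb was at 8.73 and 8.84, against 8.36, 8.26 and 8.35 at 1 month (0.47 ± 0.17, adjusted p = 0.0472, and 0.094 after cyclic loess). Again no 12-month control was as low as any 1-month control. The C1qb call was lost when any single 1-month control was left out (adjusted p = 0.0794, 0.112 and 0.0859). It was also lost without many single arrays of other groups, such as replicate 1 of 0.01 µg/ml at 1 month (0.0527). The C2 call was lost without replicate 1 or replicate 2 of the 1-month control (adjusted p = 0.0502 and 0.0587). Without replicate 1 or 2 of the 12-month control, which leaves 1 array there, the C1qb change was 0.52 or 0.41. Without replicate 1 of the 12-month control the C2 change was 0.77 and the Lyz1 change 0.92, and both calls were lost. Over the left-out arrays the count ran from 2 to 5: it was 2 without replicate 1 of the 12-month control, 3 without replicate 1 and 3 without replicate 2 of the 1-month control.

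In the 6-month controls, against those of 1 month, limma called 0 member probes and 0 of all tested probes (0% called). At an unadjusted p under 0.05 there were 4 of 8 member probes, against 359 of all (2.33%). The brightest Lyz1 probe was at 10.79, 10.77 and 10.68 there (0.69 ± 0.23, adjusted p = 1) and Lyz2 at 9.03, 9.06 and 9.02 (0.42 ± 0.14, adjusted p = 1). The second Lyz2 probe, with the smallest p of the members here, was at 9.13, 8.82 and 8.85, against 8.05, 8.39 and 8.23 in the 1-month controls (0.71 ± 0.20, adjusted p = 1, and 0.0235 with array weights). In all 3 of these probes the 6-month controls lay above the 1-month controls. At 12 against 6 months in the controls, Lyz2 rose by 0.67 ± 0.15 (adjusted p = 0.0037) and C1qc by 0.35 ± 0.10 (0.0165), 2 of 8 probes against 9.51% of all. Both calls rest on 2 arrays of 12 months. Without replicate 1 of the 12-month control, which leaves a single array there, the changes were 0.63 for Lyz2 and 0.31 for C1qc. Both calls were lost in that setting. Without replicate 2 of the 12-month control the C1qc change was 0.39, and its call was lost. The C1qc call was also lost without replicate 2 of the 6-month control (0.28 ± 0.11, adjusted p = 0.082). The comparisons of controls share arrays with those over all doses.

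**Figure D2:**
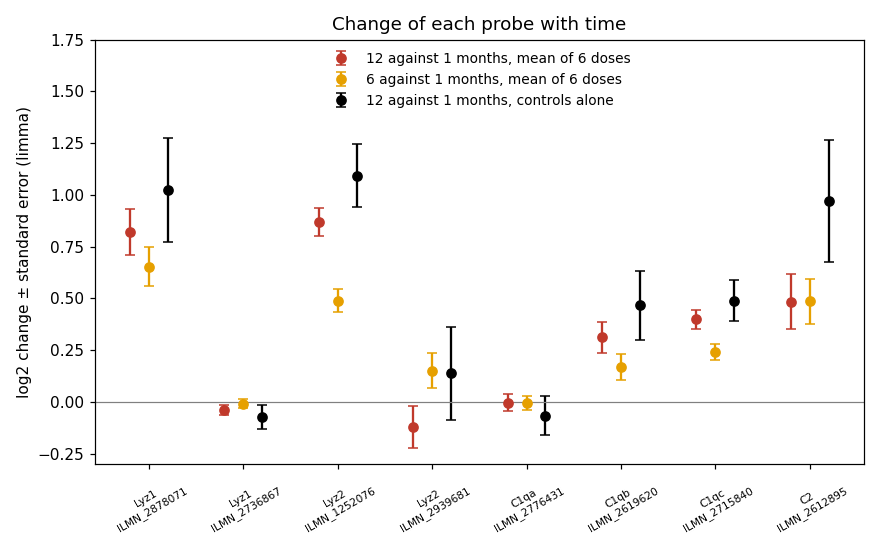
Log2 change of each tested probe (y axis, points, with bars of 1 standard error from limma) between times, over the mean of the 6 doses (red, 12 against 1 month; amber, 6 against 1 month) and in the controls alone (black, 12 against 1 month). Lyz2 ILMN_1252076 is at 0.87 and 1.09 for 12 against 1 month over all doses and in the controls, and its second probe at -0.12 and 0.14.

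The labels number the samples from 1 to 46 in order of time and dose, without saying what the numbers stand for. In blocks of 8 consecutive numbers, 2 blocks held more than 1 time. In the block of numbers 17 to 24 the 7 arrays of 6 months had Lyz1 values of 10.43 to 11.03 and Lyz2 values of 8.71 to 9.12, against 10.23 and 8.50 on the 1 array of 1 month (10 µg/ml). C1qc was 8.12 to 8.55 there against 8.10. C2, at 9.75 to 10.78, lay on both sides of the 1-month array at 10.08, and so did C1qb, at 8.34 to 8.73 against 8.42. In the block of numbers 33 to 40 the 5 arrays of 12 months had Lyz2 values of 9.50 to 9.85, against 9.13 to 9.67 on the 3 arrays of 6 months (10 µg/ml), and the 2 ranges overlapped. With the block as a fixed term none of the 3 time comparisons over all doses could be estimated, and in these time and block cannot be told apart. The 6 against 1 month comparison of the controls alone could be estimated, and limma called 0 member probes and 0 of all tested probes, with 0 and 372 at an unadjusted p under 0.05. Its standard errors were wider, with Lyz2 at 0.23 ± 0.33 and Lyz1 at 0.62 ± 0.55.

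Few comparisons between doses passed for these genes. Over the 15 comparisons of a dose with the control of its time, 1 of 120 tests of member probes passed, the second Lyz2 probe at 10 µg/ml and 6 months, and 15 of 120 had an unadjusted p under 0.05, against 11.3% of the tests of all probes. In that comparison 8.37% of all tested probes fell and 17.4% were called in either direction. From 0.001 to 10 µg/ml, the shares of all probes called were 0%, 0%, 0.00649%, 0.298% and 0.0713% at 1 month. They were 0%, 0%, 6.03% and 0.311% for the 4 lower doses at 6 months, and 0%, 0.013%, 0.0389%, 0.0324% and 0.0195% at 12 months. This call was lost when either the first control array of 6 months or the third array of 10 µg/ml was left out.

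This Lyz2 probe, ILMN_2939681, stood at 8.28, 8.22 and 8.16 in mice given 10 µg/ml for 6 months, against 9.13, 8.82 and 8.85 in the controls of that time. All 3 treated arrays lay below all 3 controls, and the change was -0.71 ± 0.20 (0.609-fold, adjusted p = 0.0145). The brightest Lyz2 probe was at 9.14, 9.13 and 9.67 at 10 µg/ml, against 9.03, 9.06 and 9.02 in the controls, and its change was 0.27 ± 0.14 (adjusted p = 0.165). The 2 probes of 1 gene thus differed in sign here.

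Over the doses at 6 months the second Lyz2 probe differed between stretches of label numbers. It was at 9.13, 8.82 and 8.85 in the control, at 9.18, 8.74 and 8.53 at 0.001 µg/ml and at 9.34, 8.47 and 8.22 at 0.01 µg/ml. At 0.1 µg/ml it was at 8.17, 8.17 and 8.56, at 1 µg/ml at 8.42, 8.37 and 8.06, and at 10 µg/ml as above. It ran from 8.53 to 9.34 on the 7 arrays with label numbers 18 to 24, from 8.06 to 8.56 on the 8 numbered 25 to 32 and from 8.16 to 8.28 on the 3 numbered 33 to 35, so that the first 2 ranges overlapped. The median bead intensity was 155.4 to 221.4, 107.8 to 132.5 and 131.1 to 154.4 on the same arrays, and its part in the result was not tested. Within the 0.01 µg/ml group replicate 1 lay in the first block and the others in the second. The 10 µg/ml group and the control share no block, and dose and block cannot be told apart in that comparison.

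**Figure D3:**
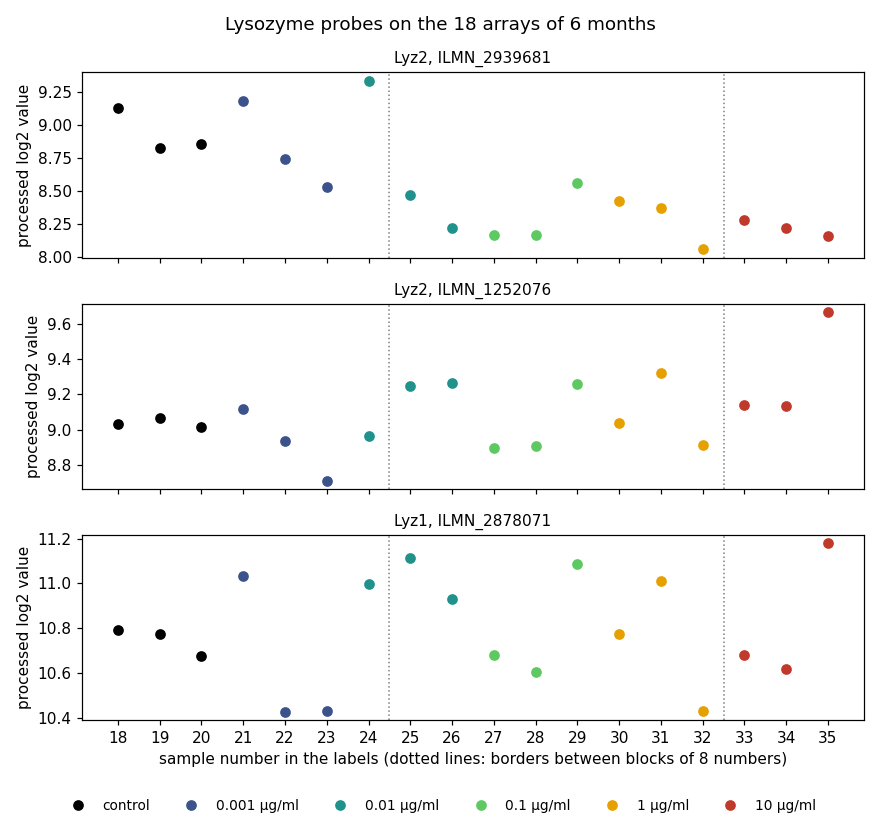
Processed log2 value (y axis) of 3 lysozyme probes on the 18 arrays of 6 months, by the sample number in the labels (x axis) and coloured by dose; dotted lines are the borders between blocks of 8 numbers. The second Lyz2 probe is at 8.53 to 9.34 on numbers 18 to 24 and at 8.06 to 8.56 on the later ones, while the brightest Lyz2 probe is at 8.71 to 9.12 on numbers 18 to 24.

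A dose trend, in log2 units for each step up the 6 ranked doses, was also fitted at each time. At 6 months 1 member probe rose and 2 fell, against 13.8% of all tested probes that rose and 12.7% that fell. C1qc rose by 0.04 ± 0.02 per step (adjusted p = 0.035), the second Lyz2 probe fell by 0.16 ± 0.03 (0.00104) and the second Lyz1 probe fell by 0.02 ± 0.01 (0.0463). The brightest Lyz2 probe was at 0.05 ± 0.02 (adjusted p = 0.111) and C2 at 0.10 ± 0.04 (0.113). The C1qc values at 6 months were 8.38, 8.49 and 8.58 at 10 µg/ml, against 8.26, 8.12 and 8.41 in the control, a change of 0.22 ± 0.09 (adjusted p = 0.0874) and of 0.22 ± 0.08 without the outlying array (0.0396).

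The trends of C1qc and of the second Lyz1 probe were lost under several settings, with adjusted p of 0.0682 and 0.085 after cyclic loess. The count of 3 calls fell to 1 when any of 5 arrays of 6 months was left out: replicates 1 and 2 of the control, replicates 2 and 3 of 0.001 µg/ml and replicate 3 of 10 µg/ml. Differences between the trends of 2 times passed for 3 probes, all negative: 1 for 6 minus 1 months, against 6.58% of all probes lower, and 2 for 12 minus 6 months, against 8.67%. With each of the 46 arrays left out in turn, the 6-month trend was called 46 times for the second Lyz2 probe and 39 times for C1qc. For the second Lyz1 probe it was called 27 times. Leaving out single arrays does not separate dose from the blocks of label numbers. With the block as a fixed term the 6-month trend could not be estimated, so dose and block cannot be told apart in it.

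At 1 and at 12 months 0 member probes passed in the dose trend with limma, against 5.58% and 0.013% of all tested probes. At an unadjusted p under 0.05 there were 3 of 8 at 1 month and 1 of 8 at 12 months, against 22.5% and 8.41% of all. At 1 month the 3 trends with the smallest p were those of the second Lyz2 probe (0.08 ± 0.03, adjusted p = 0.134), C1qa (-0.03 ± 0.01, 0.166) and the brightest Lyz1 probe (0.08 ± 0.04, 0.194). The Lyz1 values at 1 month were 9.87, 10.47 and 10.23 at 10 µg/ml, against 9.91, 10.34 and 9.90 in the control, and the groups overlapped. At 12 months the brightest Lyz2 probe was at -0.12 ± 0.03 per step (95% interval -0.19 to -0.05, adjusted p = 0.262), and at -0.03 ± 0.04 without the single array of 10 µg/ml. That array stood at 8.88, against 9.75 and 9.66 in the controls (-0.82 ± 0.20, adjusted p = 0.12). On the same array Lyz1 was at 10.21, against 11.18 and 10.98 (-0.86 ± 0.34, adjusted p = 0.369), and C1qc at 8.28, against 8.65 and 8.57. That array has no replicate and is assumed in the fit to vary like the others, and the 12-month array of 1 µg/ml, also alone, had Lyz2 at 9.78 and Lyz1 at 11.61.

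The brightest probes of the 2 lysozymes moved together from mouse to mouse within groups. The deviations of the brightest probes of Lyz1 and Lyz2 from their group means correlated with r = 0.761 and rho = 0.761 over 46 arrays (permutation p = 1e-05 for each, the smallest that 100000 draws within groups give here, adjusted over 21 pairs 0.00021). The value was r = 0.761 without the 2 arrays farthest from the median of Lyz1 and 0.782 without the outlying array. Lyz1 also correlated with the second Lyz2 probe (r = 0.557, rho = 0.61, adjusted p = 0.00388 and 0.00336). The 2 Lyz2 probes were at r = 0.218 with each other, and whether each lysozyme probe reads Lyz1, Lyz2 or both was not tested. All probes were read on the same arrays and share their normalization.

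Among the C1q chains, C1qa and C1qc passed (r = 0.585, rho = 0.519, adjusted p = 0.0104 and 0.0424), with r = 0.457 without the outlying array. C1qa and C1qb were at r = 0.704 with that array and 0.253 without it, and C1qb and C1qc at 0.527 and 0.359, so these 2 values rested on 1 array. Neither passed (adjusted p = 0.0909 and 0.0601). Lyz1 and C1qc were at r = 0.265, and at 0.541 without that array. C2 and the other members ran from -0.209 with C1qa to 0.276 with Lyz1, and 0 of these pairs passed the permutation test, adjusted or not. Without the outlying array C2 was at r = 0.113 with C1qa, 0.366 with C1qb (-0.088 with it), 0.476 with C1qc (0.252 with it) and 0.14 with Lyz1.

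**Figure D4:**
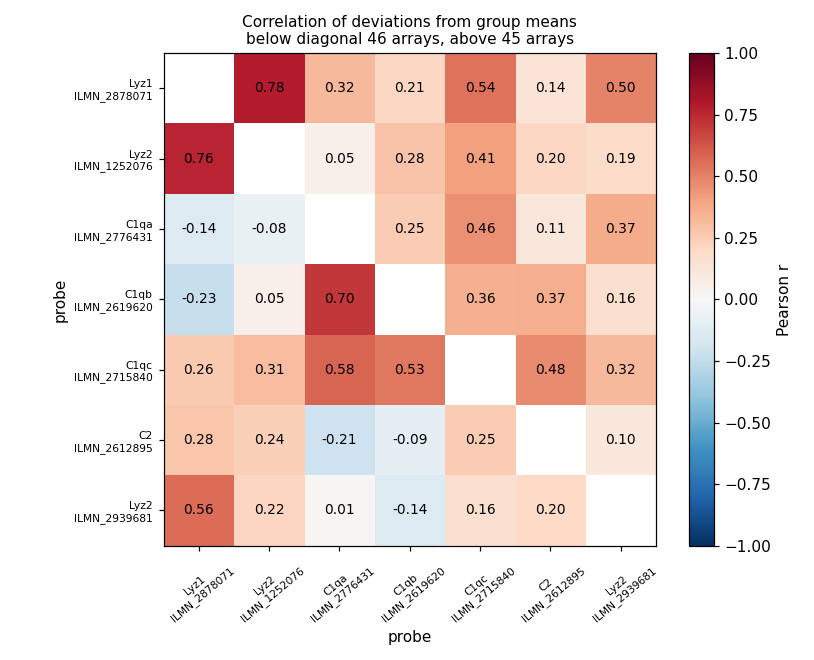
Pearson r (colour and number) between the deviations of member probes from their group means, below the diagonal over all 46 arrays and above it over 45 arrays, without replicate 3 of 0.001 µg/ml at 1 month. Lyz1 and Lyz2 stand at 0.76 and 0.78, and C1qa with C1qb at 0.70 and 0.25.

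Other macrophage genes were compared with the members in the same fit. Of 39 genes listed, 37 had a probe and 24 were bright enough to be tested, and at 12 against 1 month 6 of the 24 rose and 1 fell, with a median change of 0.03, beside the 22.9% and 18.3% of all tested probes that rose and fell. Laptm5, a lysosomal membrane protein of blood cells, rose by 0.58 ± 0.08 (adjusted p = 2.65e-06). Lgmn, the lysosomal protease legumain, rose by 0.36 ± 0.06, Vsig4, a complement receptor of tissue macrophages, by 0.24 ± 0.04, and Mrc1, the mannose receptor CD206, by 0.20 ± 0.06. The scavenger receptor Stab1 (0.09) and the endotoxin co-receptor Cd14 (0.08) also rose, and Pf4, a chemokine, fell by 0.13 ± 0.04.

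Several defining macrophage genes did not pass. These 3 were chosen after their values were seen. Adgre1, an adhesion receptor of mature macrophages, was at -0.07 ± 0.04 (adjusted p = 0.124), the adaptor Tyrobp at -0.04 ± 0.02 (0.174) and Cx3cr1, the fractalkine receptor, at 0.02 ± 0.04 (0.677). All 3 were dim, with means of 7.93, 7.78 and 7.96. Itgam, Spi1 and Ptprc were among those left out as dim. The summed level of the 24 genes ran from 13.24 to 13.72 at 1 month, from 13.27 to 13.46 at 6 months and from 13.31 to 13.51 at 12 months (log2). For the 6 members it was 11.50 to 12.16, 11.82 to 12.64 and 11.95 to 12.70. Sums here and below were made on the linear scale of the processed values, so the brightest genes weigh most. The highest mean was 11.91 among the 24 genes and 10.59 among the members. At 6 against 1 month 6 of the 24 rose and 0 fell with limma, and at 12 against 6 months 0 rose and Trem2 fell (-0.07). Of all tested probes 9.38% rose and 7.91% fell at 6 against 1 month, and 5.25% and 4.24% at 12 against 6 months.

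Of 43 other complement genes 19 were tested, and 4 rose and 2 fell at 12 against 1 month, with a median of 0.03, again beside 22.9% and 18.3% of all. Serping1, the inhibitor of C1, rose by 0.39 ± 0.10 (adjusted p = 0.003) and C4b, the partner of C2 in the C3-cleaving enzyme, by 0.23 ± 0.09 (0.0306). Itgb2, a chain of the complement receptors CR3 and CR4 (0.08), and the ficolin Fcna (0.07) also rose. Cd55b, a copy of the decay-accelerating factor that removes the C3-cleaving enzyme, fell by 1.04 ± 0.14 and C6, of the membrane attack complex, by 0.11 ± 0.04. At 6 against 1 month 3 rose and 1 fell, beside 9.38% and 7.91% of all tested probes. At 12 against 6 months 0 rose and Cd55b fell, beside 5.25% and 4.24%. In the dose trend at 6 months 0 rose and 2 fell, Cd55b (-0.29 ± 0.05 per step) and C6 (-0.03), beside 13.8% and 12.7%.

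The sperm lysozymes of the same family also rose at 12 against 1 month, where 22.9% of all tested probes rose. These genes are made by spermatids rather than macrophages, and 4 of 4 tested rose at 12 against 1 month: Lyzl6 by 0.43 ± 0.11, Lyzl1 by 0.25 ± 0.05, Lyzl4 by 0.19 ± 0.07 and Spaca3 by 0.17 ± 0.05. At 6 against 1 month, where 9.38% of all tested probes rose, only Lyzl1 of these 4 passed (0.16 ± 0.04). MHC class II genes, made by macrophages and dendritic cells, rose too: 3 of 3 tested rose at 12 against 1 month (H2-Ab1 by 0.67 ± 0.18, Cd74 by 0.54 ± 0.12 and H2-Eb1 by 0.15 ± 0.05), and 0 of 3 passed with limma at 6 against 1 month (0 also at an unadjusted p under 0.05; Cd74 at 0.19).

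Markers of other cells were also compared at 12 against 1 month, where 22.9% of all tested probes rose and 18.3% fell. Neutrophils also make Lyz2. Of 4 neutrophil markers tested of 11 listed, 0 passed at 12 against 1 month with limma, and 0 had an unadjusted p under 0.05 (Ltf 0.13 ± 0.09 and Elane 0.01). All 4 were dim, with means of 7.80 to 7.85 against 7.76 for the brightest probe left out, where differences are compressed. Neutrophils as a source of Lyz2 were not tested. The summed level of the 4 markers ran from 9.75 to 9.90 at 1 month, from 9.77 to 10.03 at 6 months and from 9.75 to 10.08 at 12 months. Of 3 lymphocyte markers 1 fell (Cd4, -0.09), of 3 blood cell markers 1 fell (Hbb-b2, -0.11), and the 1 mast cell marker tested, Cpa3, was at 0.12 (adjusted p = 0.0697). Endothelial markers rose in 5 of 6 (Egfl7 by 0.32, Vwf by 0.15), Leydig cell markers in 3 of 5 (Insl3 by 0.58, Star by 0.17, Hsd3b1 by 0.11), Acta2 of the peritubular myoid cells rose by 0.32, and of 8 Sertoli cell markers Dhh (0.29) and Shbg (0.20) rose and Sox9 fell (-0.08).

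Of 8 germ cell markers 4 fell at 12 against 1 month, Tnp2 (-1.08 ± 0.15), Tnp1 (-0.71 ± 0.13), Akap4 (-0.45 ± 0.05) and Dazl (-0.25), and 2 rose, Prm1 (0.33) and Ldhc (0.31). Of all tested probes 18.3% fell and 22.9% rose. The summed level of the germ cell markers ran from 16.28 to 16.56 at 1 month, from 16.36 to 16.54 at 6 months and from 16.29 to 16.49 at 12 months, and that of the 5 Leydig cell markers from 13.77 to 14.60, from 13.53 to 14.51 and from 14.00 to 14.56. In the dose trend at 6 months 5 of the 8 germ cell markers fell and 2 rose, and 3 of 8 Sertoli cell, 3 of 6 endothelial and 2 of 3 myoid markers rose. In that trend 13.8% of all tested probes rose and 12.7% fell. The part of other cell types in the changes of the lysozyme and complement genes was not tested.

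The probes most like the members were found by correlation with the member mean, the average of the 6 brightest member probes after each was centred. Over the values of the 46 arrays, which share the differences between times, these were Tmem223 (r = 0.892), Fndc10 (0.877), Blvrb (0.876), Laptm5 (0.856), Cbr2 (0.852), Selenbp1 (0.845), Eif2ak2 (0.84), Rps4x (0.835), Gstk1 (0.833) and Gpx1 (0.831). Each of these 10 rose at 12 against 1 month, by 0.23 (Cbr2) to 0.71 (Gstk1). They were picked by likeness to a mean that itself rose with time, so their rise is not a separate result. Of the 10, Laptm5 is also on the macrophage list, and its r was 0.912 without the outlying array.

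Once the group means were taken off, other genes stood closest. These were Arhgdib (r = 0.708), Ctsh (0.696), a lysosomal cathepsin, Nrp1 (0.671), Cyp27a1 (0.669), the sterol 27-hydroxylase, Timp1 (0.659), 1110008P14Rik (0.659), Uba7 (0.656), Cd47 (0.653), Hoxd9 (0.651) and Shisa5 (0.647). Of these 10, Ctsh (0.12 ± 0.11), Nrp1 (0.01 ± 0.04) and Shisa5 (0.13 ± 0.06) did not pass at 12 against 1 month (adjusted p = 0.367, 0.861 and 0.083).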

How the data were processed

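RNA of 46 mouse testes was measured on Illumina bead arrays. The authors deposited non-normalized bead intensities on a linear scale and processed log2 values made with lumi, per the submitters' processing notes, whose version is not given in the sources used here. The processed columns share quartiles and extremes, and differences of dim probes are compressed. The processed log2 values were analysed. The intensity table has columns that are not in probe order, so only its sorted values served, as an alternative scale, and 1 of its columns was not used. Arrays were grouped by dose and time from their titles into 18 groups. The dimmest 40% of probes were left out, and 15419 were fitted with limma (version 3.58.1, R version 4.3.3), with a mean per group and the spread pooled over all arrays. Of the 25697 probes 23978 had 1 symbol, 1719 none and 0 several, in a platform annotation that can be old. Named list genes were up to 6 per list and comparison with the smallest p past the threshold, else 2 as values, and the 10 and 10 probes most like the member mean. Where a gene has several probes the brightest stands for it in lists, and both are given for the lysozymes. Correlations used 100000 permutations within groups. Promoters are RefSeq sequences of GRCm38.p6, aligned globally with Biopython (version 1.88), and 4 of the 6 measured genes had an entry. The members and lists were chosen with earlier results of these data known. The labels speak of individual testes. Other filters, cyclic loess, another scale, array weights, replicate and number blocks and leaving out each array were tried. The script was tested on simulated data.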

Additional observations from a re-analysis of the deposited data

Results flagged for a closer look

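Differences between the dose trends of 2 times, tested as contrasts of the same limma fit, passed for 3 member probes. The trend of the second Lyz2 probe, ILMN_2939681, was lower at 6 months than at 1 month, the difference being -0.24 ± 0.05 per dose step (adjusted p = 0.00238), with the trends at -0.16 at 6 months and 0.08 at 1 month. In that difference 6.58% of all tested probes were called lower.

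The trend of the brightest Lyz2 probe, ILMN_1252076, was lower at 12 months than at 6 months, the difference being -0.17 ± 0.04 (adjusted p = 0.0071), with trends of -0.12 at 12 months and 0.05 at 6 months. That of C1qc differed between the same times by -0.08 ± 0.03 (adjusted p = 0.0383), with -0.04 at 12 months and 0.04 at 6 months. Of all tested probes 8.67% were called lower in that difference. The calls of the brightest Lyz2 probe and of C1qc were lost without the single array of 10 µg/ml at 12 months. Without it the 12-month trends were -0.03 ± 0.04 for that Lyz2 probe and 0.01 ± 0.03 for C1qc, the differences were -0.08 (adjusted p = 0.346) and -0.04 (adjusted p = 0.577), and there was 1 call, and without replicate 1 of 0.001 µg/ml at 6 months there were 5. The C1qc call was also lost without replicate 1 or 2 of the 6-month control (adjusted p = 0.0563 and 0.0722) and without several other single arrays of 6 and 12 months. With the number block taken as random and the outlying array (replicate 3 of 0.001 µg/ml at 1 month) left out, limma called 0 differences between trends for member probes. The calls of all probes in these differences were not counted in that setting. Groups of 4 or more arrays did not occur, so single arrays were not tested as outliers.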

How the results depend on the processing

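The 12 against 1 month count of 5 member calls was 5 with each of the 46 arrays left out, and the 6 against 1 month count of 4 was 4 to 5. Of the 14 called values in the time comparisons and dose trends, 14 stayed past the threshold with array weights, the dimmest 20% left out, the mean sorted log2 intensities, the replicate block and the number block as a random term, 12 with no filter and 12 after cyclic loess. The 12 against 6 months count of 2 became 4 with array weights and 1 to 4 with an array left out. Of all tested probes 1464 were called there, 4000 with array weights and 3730 without the outlying array. The dose trend count was 0 at 1 month, 1 with array weights and 0 to 1 with an array left out, the 1 when the second 1-month array of 0.001 µg/ml was dropped. Of all tested probes 861 were called in that trend, and 2637 with array weights. At 6 months the count of member calls was 3, and 1 with no filter, 1 after cyclic loess and 1 to 4 with an array left out. Of all tested probes 4087 were called in the 6-month trend, 3835 of 25697 with no filter and 3828 after cyclic loess. The 15 dose comparisons gave 1 call, 7 with array weights and 0 to 5 with an array left out, namely 5, 4 and 3 when replicate 3, 2 or 1 of the 1-month 0.001 µg/ml group was dropped. Dropping the first 6-month array of 0.001 or 0.01 µg/ml gave 3, and dropping the first 1-month array of 1 µg/ml, or the third 6-month array of the control or of 0.01 µg/ml, gave 2. The calls of all probes in the 15 comparisons were not counted under these settings. The controls alone, 12 against 1 month, gave 2 to 5 calls, and the differences of trends, 3 in all, gave 1 to 5.

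The number block taken as random with the outlying array left out, chosen after seeing the data, kept 9 of the 14 values past the threshold and gave 1 call at 12 against 6 months, 1 in the trend at 6 months, 0 in the 15 dose comparisons and 0 differences of trends. Of all tested probes 1181 were called at 12 against 6 months and 2527 in the trend at 6 months. At 12 against 1 month 5594 of all were called, against 6346 with all arrays and no block, and 887 against 2665 at 6 against 1 month. The calls of all probes in the dose comparisons and differences of trends were not counted in this setting. The estimated correlation of the block was 0.172, against -0.00238 with all arrays. As a fixed term the block left 14 of the 15 dose comparisons and the trends at 1 and 12 months estimable, with 0 member calls among them. Likewise estimable, with 0 member calls, were the controls alone at 6 against 1 month and the difference of trends of 12 minus 1 months. Of all tested probes, 0 to 4 were called in each of these dose comparisons and 0 in each of the others named. The other comparisons of times or of trends between times, the 6-month trend and the 10 µg/ml comparison at 6 months could not be estimated. Same-numbered replicates did not deviate together (97 pairs, lowest r = -0.212, median 0.0105, 13 pairs over 0.1), so the numbers do not pair the samples. The replicate block gave 3 calls at 12 against 6 months, beside 2065 of all tested probes, and changed none of the 14 calls. Of 15 pairs of genes, 8 had r over 0.5 over the array values, and 10 without the outlying array. Over deviations from group means 4 had, and 2 without that array. The array values hold the differences between times, and the share of such pairs among all tested probes was not counted. The cause of these shifts was not tested. Small changes of dim probes (C1qa, second Lyz1 probe) are limited by signal over background.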
